A study of Mus musculus with 14 samples.

Results

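Collagen genes were described in the chromatin of basal epidermal progenitor cells of newborn mice, at peaks of the Polycomb protein Ring1b and of the histone marks H2AK119ub (ubiquitin on a lysine of histone H2A) and H3K27me3 (trimethylation of a lysine of histone H3). The members were every gene whose name, in the gene name column of the 6 replicate peak lists, read Col, a number, a, and a number. This rule found 26 collagen genes among 7264 gene names, in 118 of 26186 rows. RefSeq lists 44 protein-coding genes with such names, so 18 collagens appeared in no list. The genes were split into 11 fibrillar collagens, 6 basement membrane collagens (the type IV chains), 2 anchoring collagens (Col7a1 and Col17a1) and 25 others.

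The mice carried a red reporter driven by Krt14, a keratin promoter of the basal layer, and a green histone reporter driven by Krt10, a keratin promoter of the layers above it (Krt14-RFP; Krt10-H2B-GFP), in all groups. At postnatal day 0, cells positive for Sca1, high for the red label and negative for the green label were sorted. Chromatin from 6000000 cells was used for each Ring1b precipitation and from 400000 cells for each histone mark, with 2 replicates for each antibody. The other 8 of the 14 samples were not analysed here. Separate animals or litters are not stated for the replicates, and their spread may therefore be technical.

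Collagens are triple helical proteins of the extracellular matrix, in which fibrillar types build the fibrils of dermis, cartilage and tendon, type IV chains build the sheet under every epithelium, and smaller families decorate fibrils or span the cell membrane. In skin, dermal fibroblasts make most of the fibrillar collagen, whereas basal keratinocytes make type VII collagen, the anchoring fibril protein, and type XVII collagen, a transmembrane protein of hemidesmosomes. Ring1b (Rnf2) is a catalytic subunit of Polycomb repressive complex 1 and places H2AK119ub, and Polycomb repressive complex 2 places H3K27me3. In mammals both complexes are known to occupy promoters rich in CG dinucleotides.

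The promoter sequences of 6 collagens show the range of CG content among genes with different peaks. They come from RefSeq (GRCm38.p6, the assembly behind mm10), run from 250 bases before to 50 bases after the annotated start on the gene's own strand, and are written 5′ to 3′ with each CG in capitals. The Col4a1 window (chr8:11312777-11313076, minus strand) lay under the Ring1b peak of both replicates and under no peak of either mark. The Col13a1 window (chr10:61979059-61979358, minus strand) lay under H3K27me3 in both replicates, Ring1b in replicate 1 and H2AK119ub in replicate 2. The Col19a1 window (chr1:24587388-24587687, minus strand) lay under Ring1b peaks alone. The Col15a1 window (chr4:47207762-47208061, plus strand) lay under H3K27me3 in both replicates, H2AK119ub in replicate 2 and no Ring1b. The Col17a1 window (chr19:47691993-47692292, minus strand) and the Col3a1 window (chr1:45311288-45311587, plus strand) lay under no peak.
Col4a1: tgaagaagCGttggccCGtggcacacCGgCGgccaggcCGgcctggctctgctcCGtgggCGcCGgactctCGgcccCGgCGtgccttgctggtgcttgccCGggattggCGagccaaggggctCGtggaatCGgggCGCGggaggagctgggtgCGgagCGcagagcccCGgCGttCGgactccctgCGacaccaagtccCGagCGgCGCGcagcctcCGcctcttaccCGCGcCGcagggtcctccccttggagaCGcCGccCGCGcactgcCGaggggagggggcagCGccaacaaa
Col13a1: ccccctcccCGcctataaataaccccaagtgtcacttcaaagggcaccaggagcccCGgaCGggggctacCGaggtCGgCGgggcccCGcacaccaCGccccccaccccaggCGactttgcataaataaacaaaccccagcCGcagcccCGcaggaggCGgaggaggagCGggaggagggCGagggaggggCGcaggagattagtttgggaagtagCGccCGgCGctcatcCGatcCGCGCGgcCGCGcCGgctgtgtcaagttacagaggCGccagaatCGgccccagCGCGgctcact
Col19a1: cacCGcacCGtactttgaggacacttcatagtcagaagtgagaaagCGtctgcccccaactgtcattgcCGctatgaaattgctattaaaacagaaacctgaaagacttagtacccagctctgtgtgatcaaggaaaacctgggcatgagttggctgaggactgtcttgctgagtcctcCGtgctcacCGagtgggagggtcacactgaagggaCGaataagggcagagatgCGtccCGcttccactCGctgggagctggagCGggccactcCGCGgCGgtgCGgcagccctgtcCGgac
Col15a1: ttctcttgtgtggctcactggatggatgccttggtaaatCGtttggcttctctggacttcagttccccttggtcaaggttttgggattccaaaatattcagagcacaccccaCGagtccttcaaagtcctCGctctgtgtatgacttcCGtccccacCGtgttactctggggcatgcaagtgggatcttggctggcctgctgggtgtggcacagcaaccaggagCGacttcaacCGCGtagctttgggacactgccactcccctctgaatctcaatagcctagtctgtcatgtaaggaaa
Col17a1: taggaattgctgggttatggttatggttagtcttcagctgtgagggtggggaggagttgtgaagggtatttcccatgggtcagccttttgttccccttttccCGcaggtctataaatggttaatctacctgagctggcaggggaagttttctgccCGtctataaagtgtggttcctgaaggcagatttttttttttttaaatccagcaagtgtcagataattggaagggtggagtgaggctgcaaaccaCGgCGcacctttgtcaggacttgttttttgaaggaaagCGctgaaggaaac
Col3a1: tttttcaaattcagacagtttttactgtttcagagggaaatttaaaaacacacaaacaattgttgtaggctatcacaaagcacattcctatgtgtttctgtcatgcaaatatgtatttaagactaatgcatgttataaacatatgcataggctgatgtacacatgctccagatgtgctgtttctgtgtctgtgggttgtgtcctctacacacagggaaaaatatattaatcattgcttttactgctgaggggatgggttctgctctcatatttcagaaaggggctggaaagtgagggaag

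The number of CG dinucleotides in these windows was 37 for Col4a1, 29 for Col13a1, 16 for Col19a1, 8 for Col15a1, 5 for Col17a1 and 0 for Col3a1. Of 32851 RefSeq promoter windows, which had a median of 7 (interquartile range 3 to 20), 94.6% held at least 1 CG, a motif that reads the same on both strands. As many CGs as in Col4a1 were found in 5.58% of all windows, and as many as in Col17a1 in 62.0%. Sequence was read for 35 of the 44 collagens (38 windows). The entry was missing for Col12a1, Col14a1, Col1a1, Col22a1, Col26a1, Col2a1, Col4a3, Col5a2 and Col9a3. The 3 windows under Ring1b peaks of both replicates (Col4a1, Col4a2, Col19a1) held 16 to 37 CGs with a median of 33. The 6 windows under Ring1b in 1 replicate (Col5a1, Col8a2, Col13a1, Col16a1, Col27a1 and 1 of 2 windows of Col18a1) held 16 to 34 with a median of 26.5. The 7 windows with a mark but no Ring1b held 6 to 23 with a median of 10, and the 22 windows under no peak held 0 to 24 with a median of 6. The ranges overlapped: Col23a1 had 24 CGs and no peak over its window, as many as Col16a1. These counts were not tested, and windows of neighbouring genes share bases. The groups count peaks over the window alone, and a promoter peak can lie beside it. A Ring1b promoter peak of Col25a1 in replicate 1 began at 130180943, past the window end at 130180894. Col23a1 had H3K27me3 promoter peaks in both replicates, outside its window. Ring1b was at the promoters of Col13a1 and Col27a1 in both replicates, but over their windows in 1.

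**Figure D1:**
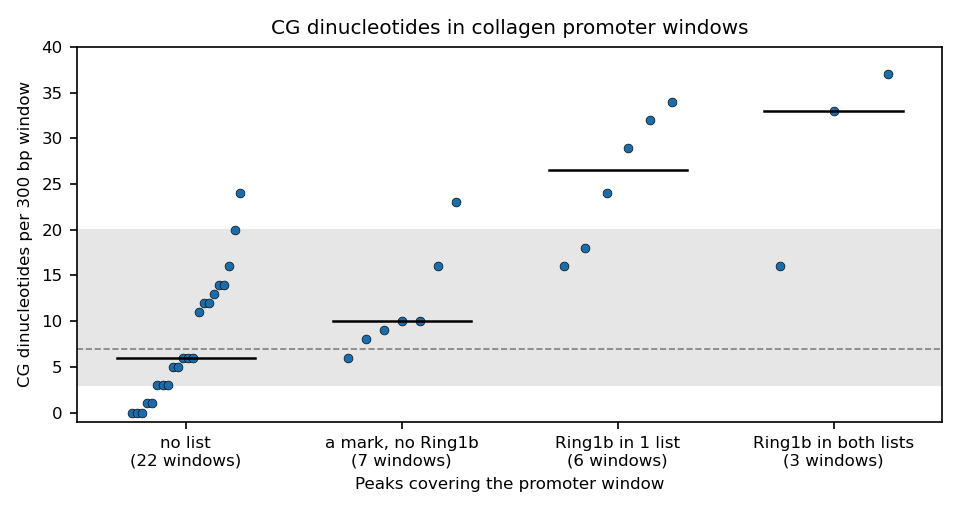
CG dinucleotides (vertical axis, count per 300 bp window) in 38 promoter windows of 35 collagen genes, grouped by the peaks that cover the window. Points are windows and black bars are medians, and the dashed line and grey band are the median (7) and interquartile range (3 to 20) of all 32851 promoter windows. Windows under Ring1b peaks start at 16, whereas windows under no peak run from 0 to 24.

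At least 1 of the 6 lists named 26 of the 44 collagens (59.1%), against 29.9% of all 21631 protein-coding genes. Collagen genes are long, with a median span of 114 kb against 17.3 kb over all protein-coding genes, and a gene body peak can fall anywhere in the span. The part of gene length in these shares was not tested. With both replicates required, Ring1b named 6 collagens (13.6%; all genes 10.2%), H2AK119ub named 12 (27.3%; all genes 8.68%) and H3K27me3 named 12 (27.3%; all genes 10.0%). For rows at promoters alone the counts were 6 for Ring1b (all genes 9.17%), 9 for H2AK119ub (all genes 6.91%) and 12 for H3K27me3 (all genes 8.87%). With both replicates required, the share for Ring1b was thus near that of all genes, and the shares for both marks lay above it. In the Ring1b list of replicate 1 alone, the collagen share was 31.8% against 17.8% of all genes. These are counts of a family picked with earlier results known, and no test was made of them.

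**Figure D2:**
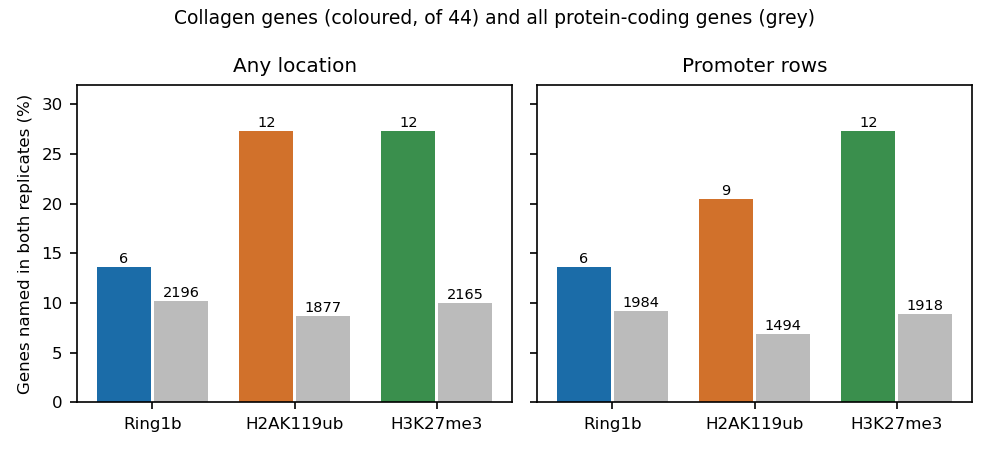
Percent of genes (vertical axis) named in both replicate lists of each antibody, at any location (left) and in promoter rows (right). Coloured bars are the 44 collagen genes and grey bars all 21631 protein-coding genes, with the number of genes above each bar. The collagen bar for H3K27me3 stands at 27.3% in both panels, and the Ring1b bars stand at 13.6%.

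In single lists, Ring1b named 14 collagens in replicate 1 (31.8%; all genes 17.8%) and 6 in replicate 2 (13.6%; all genes 11.8%). H2AK119ub named 14 in replicate 1 (31.8%; all genes 9.76%) and 13 in replicate 2 (29.5%; all genes 14.5%). H3K27me3 named 17 in replicate 1 (38.6%; all genes 15.4%) and 12 in replicate 2 (27.3%; all genes 10.1%). The 8 collagens that Ring1b named once and the 5 that H3K27me3 named once were all in replicate 1, the longer list of each antibody (4452 against 3058 rows for Ring1b, 6040 against 3124 for H3K27me3). Of the 3 that H2AK119ub named once, 2 were in replicate 1 and 1 in replicate 2. Where a gene had more than 1 row in a list, the row with the most ChIP reads stood for it. On that measure the Ring1b rows seen once held 27 to 76 ChIP reads and the H2AK119ub rows seen once 28 to 35. The part of list length or depth in these differences was not tested.

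**Figure D3:**
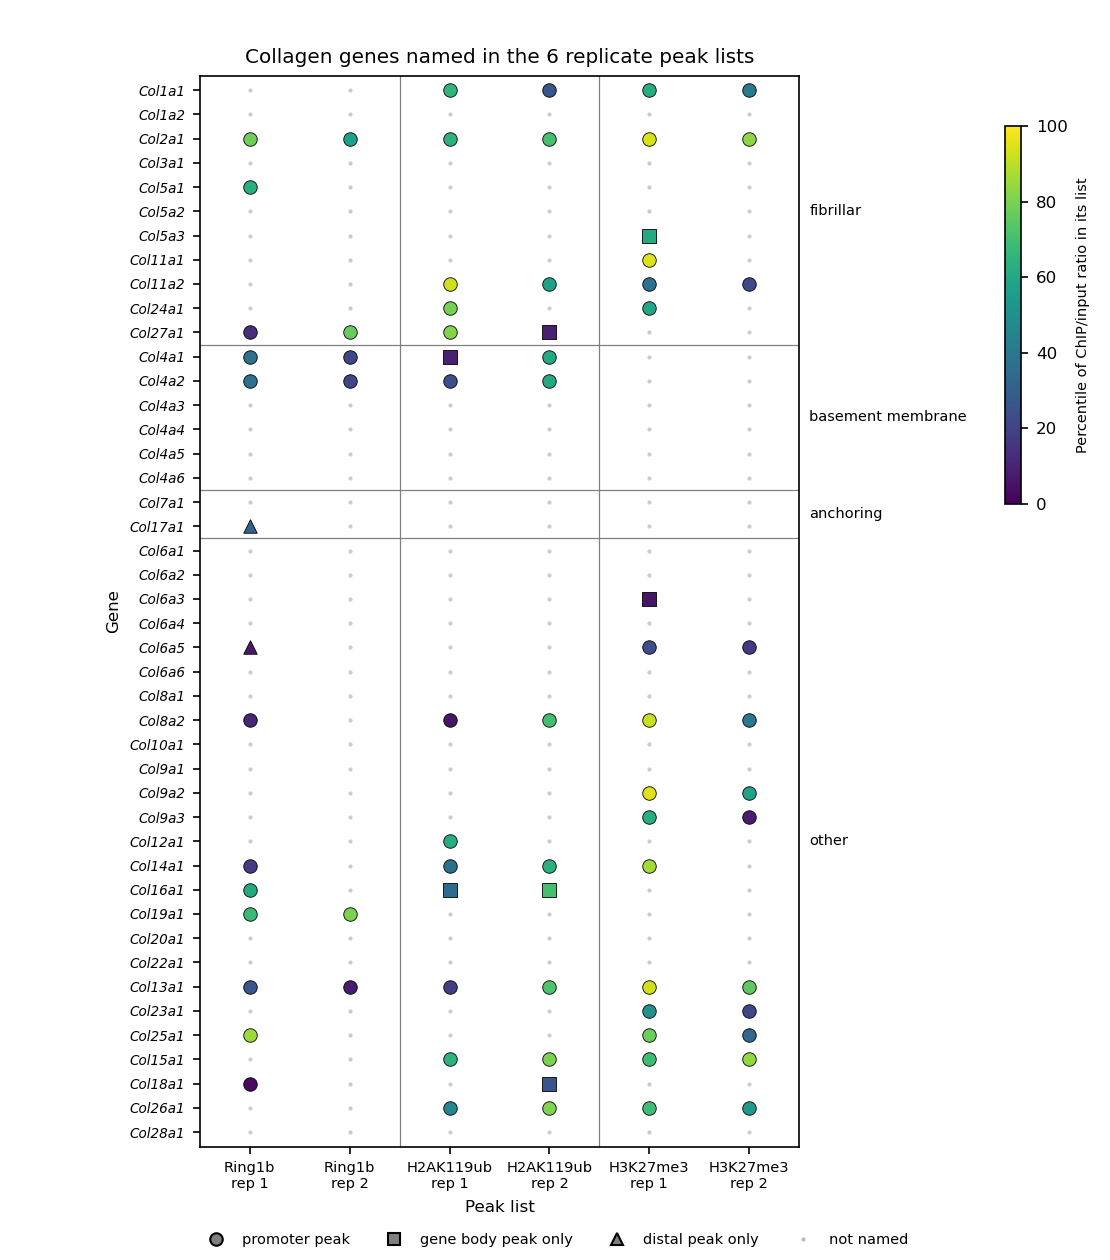
The 44 collagen genes (vertical axis, by class) in the 6 replicate lists (horizontal axis). Circles mark a promoter peak, squares a gene body peak without a promoter peak, triangles a distal peak alone and small dots a gene not named, and the colour is the percentile (0 to 100), within its list, of the peak's ChIP reads divided by its input reads. Col2a1 and Col13a1 are marked in all 6 columns, while Col7a1 is marked in none and Col17a1 in 1.

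Among the 11 fibrillar collagens, the chains of the main dermal fibrils had a split pattern. Col1a1, 1 chain of type I collagen, carried both marks at its promoter in both replicates and no Ring1b. Its partner Col1a2, and Col3a1, which joins type I collagen in skin fibrils, were named in no list. Of the type V chains, which regulate fibril width, Col5a1 had a Ring1b promoter peak in replicate 1, Col5a3 an H3K27me3 gene body peak in replicate 1, and Col5a2 none.

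Col2a1, the type II collagen of cartilage, carried all 3 antibodies in both replicates. Its Ring1b peak (chr15:98000281-98005042 in replicate 1) held 316 ChIP and 97 input reads in replicate 1 and 275 and 113 in replicate 2. The ratio of ChIP to input reads, which was not scaled for library size, was 3.26 and 2.43 (2.85 ± 0.583, SD, n = 2). The H2AK119ub ratios were 2.02 and 2.30 (2.16 ± 0.200, SD, n = 2), and the H3K27me3 ratios 16.3 and 6.17 (11.3 ± 7.20, SD, n = 2). All H3K27me3 ratios ran lower in replicate 2, where the median over the whole list was 4.68 against 8.31 in replicate 1. Within its lists the Col2a1 H3K27me3 peak stood at percentiles 93.9 and 83.2.

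The Col2a1 peaks lay inside each other. Ring1b covered 4762 and 5320 bp, H2AK119ub 8707 and 11971 bp, and H3K27me3 15805 and 13746 bp. In both replicates the Ring1b peak fell wholly within the H2AK119ub peak and within the H3K27me3 peak. The H2AK119ub peak fell wholly within H3K27me3 in replicate 1 and by 94.8% of its length in replicate 2. A separate H3K27me3 peak lay 18.5 and 18.4 kb outside the Col2a1 span, with ratios of 8.56 and 4.25, and an H2AK119ub peak lay at that place in replicate 2. Senp1 was the nearest other gene, 10.2 kb from the H3K27me3 peak, so these distal rows cannot be tied to Col2a1 by position.

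The chains of type XI collagen, a minor partner of type II in cartilage fibrils, were also listed. Col11a2 carried both marks in both replicates, with H2AK119ub ratios of 2.73 and 2.11 (2.42 ± 0.438, SD, n = 2) and H3K27me3 ratios of 7.07 and 3.55 (5.31 ± 2.49, SD, n = 2). Col11a1 had an H3K27me3 promoter peak in replicate 1 alone, with 323 ChIP and 19 input reads. That ratio, 17.0 (exact 95% counting interval 10.7 to 28.6), stood at percentile 94.9 of its list. Col24a1, another fibrillar chain, had both marks at its promoter in replicate 1 alone.

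At the Col1a1 promoter (chr11:94935055-94936402 for H2AK119ub in replicate 1), H2AK119ub ratios were 2.04 and 3.27 (2.66 ± 0.870, SD, n = 2). The replicate 2 peak there stood at percentile 96.6. A wider H2AK119ub row of the same replicate over the gene had a ratio of 1.75 and stood at percentile 26.7. The authors classed that wider row as promoter too. H3K27me3 ratios at the promoter were 9.67 and 4.30 (6.99 ± 3.79, SD, n = 2). Summed over its rows, H2AK119ub covered 3626 bp in replicate 1 and 14602 bp in replicate 2. A second H3K27me3 row over the gene, also classed as promoter and with a ratio of 6.98, appeared in replicate 1 alone.

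Col27a1, a fibrillar collagen of cartilage, carried Ring1b at its promoter in both replicates and no H3K27me3. The Ring1b ratios were 1.73 and 3.10 (2.41 ± 0.972, SD, n = 2), from 69 and 40 reads in replicate 1 and 31 and 10 in replicate 2. The Ring1b p-values of Col27a1 in the authors' deposited table were 0.15 and 0.00308, and the replicate 1 row stood at percentile 13.0. H2AK119ub also named it in both replicates, but the rows did not overlap: promoter and gene body in replicate 1, and another part of the gene body in replicate 2.

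**Figure D4:**
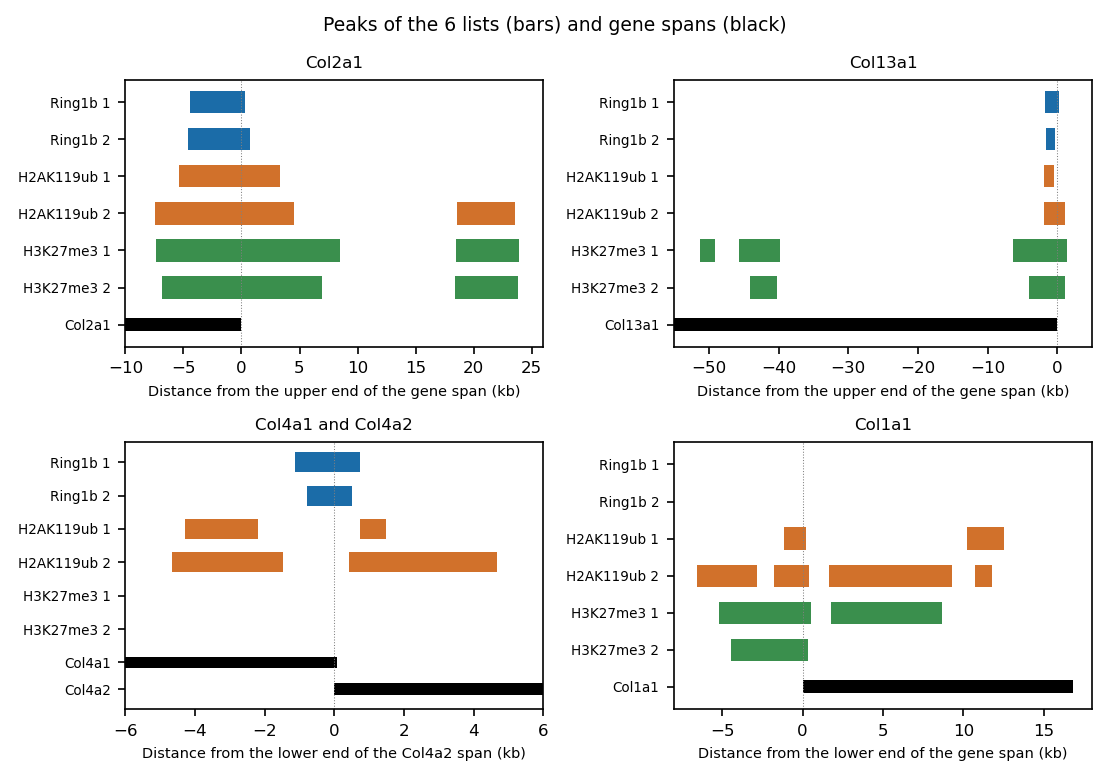
Peaks near Col2a1, Col13a1, the Col4a1 and Col4a2 pair, and Col1a1, with distance from an end of the gene span in kb on the horizontal axis and 1 line per replicate list. Coloured bars are peaks of rows that name the gene, black bars gene spans, cut at the panel edge. At Col2a1 the bars are nested, at Col4a1 and Col4a2 the Ring1b bar lies between H2AK119ub bars and overlaps 1 of them by 63 bp in replicate 2, and at Col1a1 the Ring1b lines are empty.

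Of the 6 basement membrane collagens, Col4a1 and Col4a2, the chains of the common type IV network, were named, and Col4a3, Col4a4, Col4a5 and Col4a6, the chains of more restricted networks, were named in no list. H3K27me3 named none of the 6 in either replicate, and it named 15.4% of all genes in replicate 1 and 10.1% in replicate 2. Col4a1 and Col4a2 lie head to head on chromosome 8, with spans that overlap by 85 bp and annotated starts 21 bp apart. They share a single Ring1b peak (chr8:11311662-11313532 in replicate 1, chr8:11312009-11313298 in replicate 2), so the 6 genes named by Ring1b rest on 5 peaks. Its ratio was 2.14 and 1.75 (1.95 ± 0.276, SD, n = 2), from 107 and 50 reads in replicate 1 and 56 and 32 in replicate 2.

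H2AK119ub flanked this Ring1b peak on both sides. The gap between the H2AK119ub rows was 2927 bp in replicate 1 and 1918 bp in replicate 2. The Ring1b peak shared 0 bp with H2AK119ub in replicate 1, where 15 bp lay between them, and 63 bp in replicate 2, 4.88% of its length. On the Col4a1 side the H2AK119ub ratios were 1.41 and 1.89 (1.65 ± 0.337, SD, n = 2), and on the Col4a2 side 1.59 and 2.15 (1.87 ± 0.394, SD, n = 2). In replicate 1 these peaks stood low in their list, at percentiles 9.05 and 23.3, with 95% counting intervals of 0.973 to 2.06 and 0.835 to 3.11.

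The anchoring collagens had nearly no peaks. Col7a1 (chr9:108953586-108984875) was named in no list. Col17a1 (chr19:47646341-47692042) was named once, by a distal Ring1b row of replicate 1 that lay 18.3 kb from its span and 20.6 kb from that of Sfr1. That peak held 55 ChIP and 27 input reads, a ratio of 2.04 (exact 95% counting interval 1.26 to 3.36), and its p-value in the authors' deposited table was 0.0899. Neither gene was named by a mark. Of all protein-coding genes, 29.9% were named in some list, and 8.68% and 10.0% in both replicates of H2AK119ub and H3K27me3. Most genes were thus named in no list, and 2 genes are too few to set this class apart.

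Among the 25 other collagens, 15 were named and 12 were named in both replicates of some antibody. H3K27me3 was in both replicates of 9 of these 25, against 3 of 11 fibrillar and 0 of 6 basement membrane collagens. H2AK119ub was in both replicates of 6 of the 25, against 4 of 11 and 2 of 6, and Ring1b of 2 of the 25 (Col13a1 and Col19a1), against 2 of 11 and 2 of 6. Over all genes these shares were 10.0%, 8.68% and 10.2%, and the classes were not tested against each other.

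The 3 transmembrane collagens of this class were all named. Col13a1, which sits at cell contacts, carried all 3 antibodies at its promoter in both replicates. Its Ring1b ratios were 1.97 and 1.50 (1.73 ± 0.329, SD, n = 2), the lowest mean of the 6 genes, and the p-values in the authors' deposited table were 0.0226 and 0.0657. Its H3K27me3 promoter ratios were 15.9 and 5.77 (10.8 ± 7.15, SD, n = 2), at percentiles 92.8 and 75.1. A gene body H3K27me3 peak gave 16.8 and 4.82, and the H2AK119ub promoter peak 1.52 and 2.32. The Ring1b peak lay inside the H3K27me3 peak in both replicates. Col23a1 carried H3K27me3 alone, with ratios of 8.32 and 3.52 (5.92 ± 3.39, SD, n = 2). Col25a1 carried H3K27me3 with ratios of 11.9 and 3.98 (7.93 ± 5.58, SD, n = 2), plus a Ring1b promoter peak in replicate 1 that held 30 ChIP and 8 input reads.

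Of the 9 collagens that associate with fibrils, Col9a2 and Col9a3, chains of the type IX collagen on cartilage fibrils, carried H3K27me3 alone, and their partner Col9a1 was not named. The Col9a2 ratios were 17.0 and 5.02 (11.0 ± 8.47, SD, n = 2), and those of Col9a3 were 9.70 and 2.89 (6.29 ± 4.81, SD, n = 2). Col19a1 was the single collagen with Ring1b in both replicates and neither mark in any list, a class that held 2.69% of all genes. Its Ring1b ratios of 2.86 and 3.28 (3.07 ± 0.294, SD, n = 2) were the highest mean among the collagens. Both values lay above both values of the Col4a1 and Col4a2 peak and of Col13a1, while the ranges of Col2a1 and Col27a1 overlapped with its own.

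Col14a1, which binds fibrils in skin and tendon, carried H2AK119ub with ratios of 1.73 and 2.19 (1.96 ± 0.330, SD, n = 2), and Ring1b and H3K27me3 in replicate 1. The p-value of that Ring1b peak in the authors' deposited table was 0.0917. Col16a1 had no H2AK119ub row at its promoter but 4 gene body rows in replicate 1 and 3 in replicate 2. The overlapping pairs had mean ratios from 1.71 to 2.12. Its Ring1b promoter peak was in replicate 1 alone, with 61 ChIP and 23 input reads. Col12a1 had an H2AK119ub promoter peak in replicate 1 alone, and Col20a1 and Col22a1 had none.

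Col8a2, a chain of the short-chain network under endothelium of the cornea, carried both marks at its promoter, with H3K27me3 ratios of 15.4 and 4.27 (9.82 ± 7.85, SD, n = 2) and H2AK119ub ratios of 1.35 and 2.28 (1.81 ± 0.658, SD, n = 2). Ring1b named it in replicate 1, at promoter and gene body, with both peaks inside H3K27me3 peaks. The p-values of these Ring1b peaks in the authors' deposited table were 0.377 and 0.282. Col15a1, a proteoglycan collagen of basement membrane zones, carried both marks and no Ring1b, with H3K27me3 ratios of 10.5 and 6.21 (8.34 ± 3.02, SD, n = 2) and H2AK119ub ratios of 2.03 and 2.47 (2.25 ± 0.310, SD, n = 2). Col18a1, the related source of endostatin, had Ring1b in replicate 1 and H2AK119ub in replicate 2, and Col8a1 and Col10a1 had no peak. The Col18a1 Ring1b peak stood at percentile 2.82 of its list, with a p-value of 0.475 in the authors' deposited table.

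Col26a1 had the most rows of any collagen, 16 over 4 lists, with both marks and no Ring1b. H3K27me3 covered 40937 bp in replicate 1 and 14264 bp in replicate 2, at both ends of the gene. At its promoter the H3K27me3 ratios were 10.6 and 4.89 (7.73 ± 4.02, SD, n = 2) and the H2AK119ub ratios 1.83 and 2.49 (2.16 ± 0.466, SD, n = 2). Of the 6 type VI chains, which form beaded filaments, Col6a5 carried H3K27me3 in both replicates, with promoter ratios of 6.05 and 3.35 (4.70 ± 1.91, SD, n = 2) and distal ratios of 9.12 and 3.70. The distal peak lay between Col6a5 and Col6a4, 13.1 and 13.5 kb from the first, and Col6a4 was nearer, at 10.5 and 11.9 kb. A Ring1b peak of replicate 1, with a p-value of 0.384 in the authors' deposited table, lay inside the distal H3K27me3 peak. Col6a3 had an H3K27me3 gene body peak in replicate 1, and Col6a1, Col6a2, Col6a4 and Col6a6 were not named, nor was Col28a1.

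By combination of antibodies, Col2a1 and Col13a1 were the 2 collagens named by all 3 in both replicates (4.55%; all genes 3.99%). Both marks with no Ring1b in either replicate were found at 4, Col1a1, Col11a2, Col15a1 and Col26a1 (9.09%; all genes 0.962%). Ring1b and H2AK119ub without H3K27me3 were found at 3, Col27a1, Col4a1 and Col4a2 (6.82%, against 0.698% of all genes). Of these, Col4a1 and Col4a2 share the Ring1b peak and the H2AK119ub rows of replicate 2. These combinations are by gene name and do not require the peaks to overlap. At Col27a1 the Ring1b peak and the nearest H2AK119ub row lay 1202 bp apart in replicate 1. In replicate 2 Ring1b ended at 63214686 and the H2AK119ub row began at 63227139. The Ring1b peak of Col4a1 and Col4a2 shared 0 bp with H2AK119ub in replicate 1 and 63 bp in replicate 2. H3K27me3 alone was found at 3, Col9a2, Col9a3 and Col23a1 (6.82%; all genes 1.61%). The remaining 5 genes with some antibody in both replicates and another in 1 replicate were Col8a2, Col6a5, Col14a1, Col16a1 and Col25a1. Either mark in both replicates with no Ring1b in either was found at 7 collagens (15.9%; all genes 4.65%). Within single replicates, either mark without Ring1b was found at 12 collagens in replicate 1 (27.3%; all genes 9.05%) and 13 in replicate 2 (29.5%; all genes 9.48%).

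Ratios of the collagens were set beside those of their lists in 2 ways. By gene, each gene stood by its row with the most ChIP reads in each replicate, which need not be the promoter row given above. These rows can be different regions in the 2 replicates. With H2AK119ub they did not overlap for Col1a1 (1.81 and 1.75, mean 1.78), Col26a1 (1.83 and 2.17, mean 2.00), Col4a1, Col8a2 and Col27a1. For these genes the 2 values are not replicates of 1 place, and the H2AK119ub medians by gene include them. Over the genes named in both replicates, the median of the mean ratio was 2.18 for 6 collagens against 2.57 for all gene names with Ring1b. It was 1.94 for 12 collagens against 2.06 with H2AK119ub, and 7.83 for 12 collagens against 8.56 with H3K27me3. Among the 6 collagens with Ring1b, Col4a1 and Col4a2 share 1 peak, so its mean ratio of 1.95 enters that median 2 times. On these rows, above the median of all gene names were 2 collagens for Ring1b, 3 for H2AK119ub and 4 for H3K27me3. When each ratio was divided by the median of its list's peaks, 3 of 6, 6 of 12 and 8 of 12 collagens lay above 1. By row, with every collagen row of a list counted, the median ratio was 2.00 and 2.43 for Ring1b (lists 2.40 and 2.29), 1.98 and 2.17 for H2AK119ub (lists 1.87 and 2.02), and 9.29 and 4.26 for H3K27me3 (lists 8.31 and 4.68). The median percentile of collagen rows was 28.6 and 56.4, 60.0 and 62.0, and 59.0 and 39.7 in the same order. By row, collagens thus lay above the list median in both replicates for H2AK119ub, and in 1 replicate for Ring1b and for H3K27me3. Several rows can come from 1 gene, and Col26a1 alone had 4 H2AK119ub rows in replicate 1 and 5 in replicate 2. By gene, the collagen median lay below that of all gene names for each antibody.

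**Figure D5:**
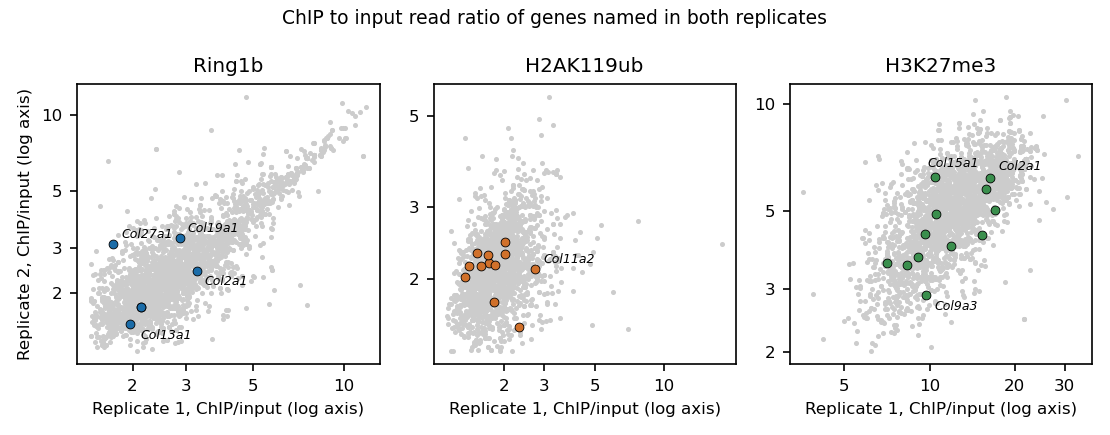
Ratio of ChIP to input reads in replicate 1 (horizontal, log axis) and replicate 2 (vertical, log axis) for every gene name in both lists of an antibody (grey) and for collagens (coloured). Each gene stands by its row with the most ChIP reads in each replicate, which can be a different region in each. Col19a1 and Col2a1 lie highest on average among the Ring1b points, while Ring1b ratios of other genes extend beyond 10.

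By location, collagen rows followed their lists for Ring1b, with 11 of 14 rows at promoters in replicate 1 (78.6%; 83.0% of list rows that name a gene) and 5 of 5 in replicate 2 (list 80.8%). For H2AK119ub, promoter rows were 54.5% and 36.7% of collagen rows (lists 55.3% and 54.1%), and gene body rows 40.9% and 46.7% (lists 27.2% and 27.3%). For H3K27me3, promoter rows were 54.8% and 75.0% (lists 56.2% and 70.6%), and gene body rows 32.3% and 6.25% (lists 22.1% and 15.3%). The authors' location class of promoter meant a peak within 2000 bp of an annotated start for 97.6% of the 9715 such rows with a measured distance. Other promoter rows were not checked, among them those of Col1a1 and Col2a1, which had no annotated start. A deposited p-value above 0.05 was given by the authors for 7 of 14 and 1 of 5 Ring1b rows, 2 of 22 and 6 of 30 H2AK119ub rows, and no H3K27me3 row of a collagen. In the whole lists that share was 34.6% and 20.5%, 7.05% and 25.4%, and 2.04% and 0.0320%.

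Genes that act on collagen were described from 3 further lists. Over all genes, 29.9% were named in some list, and 10.2%, 8.68% and 10.0% in both replicates of Ring1b, H2AK119ub and H3K27me3. Of 25 genes of collagen processing, 16 were named, with 8 in both replicates of Ring1b, 8 of H2AK119ub and 7 of H3K27me3, all of these at promoters. Adamts3, a protease that trims procollagen, had a mean Ring1b ratio of 5.04 ± 0.0589 (SD, n = 2). Pcolce2, an enhancer of procollagen cleavage, had 3.04 ± 0.244 (SD, n = 2), Tll1, a protease related to Bmp1, 2.51 ± 0.256 (SD, n = 2), and Adamts2, the main procollagen peptidase of skin, 2.39 ± 0.362 (SD, n = 2). Adamts2, Loxl1 and Pcolce2 carried all 3 antibodies in both replicates. Serpinh1, the chaperone of procollagen, Crtap and Plod1 were named in no list.

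Of 17 partners of collagens at the junction of epidermis and dermis, 9 were named. In both replicates Ring1b named 1, Lamb1 (2.69 ± 0.0234, SD, n = 2), H2AK119ub named 1, Dst, and H3K27me3 named 2, Dst and Nid2, which is near the shares over all genes. The integrin chain Itga6, a part of hemidesmosomes, was in no list. Of 7 collagen receptors, H2AK119ub named Ddr1 and H3K27me3 named Itga11 in both replicates. The Ddr1 rows with the most reads were distal (1.55 and 1.70), whereas those of Itga11 were at its promoter.

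The sorted cell type was compared with markers, although peaks of these antibodies do not measure expression. Of all protein-coding genes, 29.9% were named in some list. In both replicates of Ring1b, H2AK119ub and H3K27me3 the shares were 10.2%, 8.68% and 10.0%. Absence from the lists was thus the common case and does not identify a cell type. Of 6 basal keratinocyte markers, Krt5, Krt14, Trp63 and Itga6 were in no list, Krt15 had H2AK119ub in both replicates (1.59 ± 0.263, SD, n = 2), and Itgb4 had Ring1b and H2AK119ub peaks in 1 replicate each. Of 6 dermal fibroblast markers, Pdgfra, Pdgfrb, Twist2 and Vim carried H2AK119ub in both replicates, 3 of these also H3K27me3 (Pdgfra, Twist2, Vim), and Dcn and Lum were in no list. Pdgfra also carried Ring1b in both replicates (4.42 ± 0.313, SD, n = 2), and so all 3 antibodies. In replicate 1 alone, Twist2 had a Ring1b peak and Pdgfrb an H3K27me3 peak. Melanocyte (4) and immune (3) markers were named by no antibody in both replicates.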

How the data were processed

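Chromatin immunoprecipitation and sequencing had been done with 2 replicates each of Ring1b, H2AK119ub and H3K27me3. The submitters' processing notes list MACS2 2.1.0, SAMtools 0.1.19, Bowtie2 2.2.3, Bowtie 1.1.1, Trim Galore 0.4.1 and mm10, without roles, and the columns are not those of MACS2. Per the file headers, the authors gave for every peak a maximum height (a signal, not used further), stranded counts of ChIP and of input reads, a p-value, a location class and gene names. Not given in the sources used here were the test behind the p-value, any input scaling and the coordinate base. Coordinates are printed as deposited. The lists held 3058 to 6040 rows and were called per replicate. The authors' union lists held all replicate 1 peaks plus replicate 2 peaks overlapping none of them.

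ChIP and input counts were summed over strands and divided to give a ratio, compared within an antibody. Library totals are not in the lists, and reads inside peaks (444944 to 5212387 per list) are not depth. Intervals are exact (Clopper-Pearson) and cover counting error only. A gene carried an antibody where both replicate lists named it, and lacked it where neither did. Of 7264 names, 6468 matched a protein-coding gene in RefSeq (GRCm38.p6), 161 of them by a synonym. Values are given in full for collagens in both lists of an antibody and by count otherwise, and Col1a1, Col1a2, Col3a1, Col4a1, Col4a2, Col7a1 and Col17a1 are always accounted for. The members and gene lists were chosen with earlier results of these data known. Steps were tested on simulated data (Python 3.11.15, pandas 2.3.3, numpy 2.4.6, scipy 1.17.1, matplotlib 3.10.9). Alternatives were single replicates, union lists, p at most 0.001, rows naming 1 gene, required overlap, assignment by position, and other ratios.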

Additional observations from a re-analysis of the deposited data

How the results depend on the processing

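With 1 replicate left out in turn, Ring1b named 6 to 14 collagens at any location (6 with both required) and 6 to 12 at promoters (6), all 3 antibodies named 2 to 4 (2), Ring1b with neither mark 1 to 4 (1), and a mark without Ring1b 12 to 13 (7). The high values for Ring1b came with replicate 1, the longer list. With the union lists these counts were 14, 12, 4, 3 and 12. With a deposited p-value of at most 0.001, Ring1b named 2 collagens (Col2a1 and Col19a1) at any location and 2 at promoters, H2AK119ub 4 at any location (12 in the main count) and 3 at promoters (9), all 3 antibodies 1 (Col2a1), and a mark without Ring1b 12. A stricter threshold keeps fewer peaks by construction, and so can raise a count that requires no Ring1b peak. The genes it added to a mark without Ring1b were Col6a5, Col8a2, Col13a1, Col16a1 and Col25a1. All of these have Ring1b rows with a larger deposited p-value. Counts for H3K27me3 stayed within 1.5 times of 12 under every alternative run, as did the other counts under rows naming 1 gene, required overlap and assignment by position, which for promoters was run over genes with an annotated start only. Overlap between antibodies was required only for the count of all 3.

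Of 30 ratios per gene, all moved when divided by the list median, by construction, and 1 moved when rows were summed (Col1a1 H2AK119ub, from 1.78 for the row with the most reads to 1.98). Those Col1a1 rows did not overlap between replicates, so their SD of 0.0410 is not a spread at 1 place. At the overlapping Col1a1 promoter rows the SD was 0.870. The H2AK119ub rows of Col4a1, Col8a2, Col26a1 and Col27a1 did not overlap either, so their stability was not measured. None moved by more than the SD of the 2 rows with 1 added to both read counts, or with 1 replicate left out, which with 2 replicates holds by construction. No paired analysis was possible because the results come from no test. For genes that an antibody named in 1 replicate, the row with the most reads held as few as 27 ChIP reads for Ring1b, 28 for H2AK119ub and 205 for H3K27me3.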
